A study of Mus musculus with 26 samples.

Results

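The testis-specific serine kinases are a small family of protein kinases encoded in mouse by *Tssk1*, *Tssk2*, *Tssk3*, *Tssk4*, *Tssk5* and *Tssk6*. The family was chosen by gene symbol, which takes 6 genes of the 51124 in the deposited table of testis RNA-seq values. Homozygous knock-in mice were compared with wild-type (WT) mice. The knock-in lines, made in B6D2F1/J hybrid embryos, have a row of 10 target sites of piR-A, an abundant pachytene piRNA, placed within the 3′UTR of the RNA helicase gene *Ythdc2*, which meiotic germ cells express. The sites match piR-A fully in *10xPerf*, and in *10xBulge* they have mismatches facing the piRNA nucleotides around the slicing position. Adult whole testes gave 2 libraries for each of the 3 genotypes, named N1 and N2 (WT), N3 and N4 (*10xPerf*) and N5 and N6 (*10xBulge*). Each library was taken to be from a different mouse.

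Serine kinases of this family belong to the calcium/calmodulin-dependent kinase group, where they stand near the AMPK-related kinases. They are known mainly from postmeiotic male germ cells, the spermatids, in which haploid cells condense their chromatin and build the acrosome and the tail. TSSK1 and TSSK2 are required together for late sperm formation and phosphorylate the substrate protein TSKS. TSSK3 is needed for male fertility in mice. TSSK4 binds and phosphorylates ODF2, a protein of the outer dense fibres of the tail, and TSSK6 is needed for the replacement of histones in condensing chromatin. The role of TSSK5 is less well known.

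The coding sequences show which members the counting could confuse. *Tssk1* and *Tssk2* lie head to tail on chromosome 16 of GRCm38, both on the plus strand. *Tssk1* (ENSMUSG00000041566.4) spans 17894223 to 17897922 and *Tssk2* (ENSMUSG00000045521.8) 17898637 to 17900024, with 714 bases between them and a single exon each. *Tssk3* (ENSMUSG00000000411.8) has 2 exons on the minus strand of chromosome 4 (129489014 to 129491022). *Tssk4* (ENSMUSG00000007591.16) is on the plus strand of chromosome 14 (55650184 to 55652539), and *Tssk5* (ENSMUSG00000060794.9) on the minus strand of chromosome 15 (76371952 to 76374938). *Tssk6* (ENSMUSG00000047654.7) is a single exon on the plus strand of chromosome 8 (69902184 to 69903518).

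The 30 coding bases that begin at the codon of the catalytic aspartate, the residue that accepts the proton of the substrate hydroxyl, are shown because they hold the part that all members share. They come from GENCODE transcripts on GRCm38, read 5′ to 3′ on the coding strand, with capitals where a base differs from *Tssk1* after alignment at the catalytic codon.
*Tssk1*, chr16:17894758-17894787: gacctcaaatgtgagaaccttctgcttgac
*Tssk2*, chr16:17899140-17899169: gacctcaaatgtgagaaccttctgcttgac
*Tssk3*, chr4:129489449-129489478: gacctTaaGtgtgagaacGCCTtgTtGCaG
*Tssk4*, chr14:55651490-55651519: gaTTtAaaGtTGgagaacctGTtgctGgac
*Tssk5*, chr15:76373533-76373562: gacTtGaaatgtgaAaaTAtCctgTtGgaT
*Tssk6*, chr8:69902710-69902739: gacctcaaGtgCgaAaacGtGctgctAAGc
*Tssk1* and *Tssk2* were identical over these bases, and the other members differed from them at 8 to 10 positions. Over the whole coding sequences, *Tssk1* and *Tssk2* were identical at 78.7% of aligned bases, and the other pairs at 57.1% to 61.7%. The longest run of identical bases between *Tssk1* and *Tssk2* was 113, which is longer than the 100-base reads, and it includes the stretch printed above. No other pair shared more than 14 bases in a row. Of the 31-base words of the *Tssk2* transcript, 12.5% also occur in the *Tssk1* transcript, and 4.63% of those of *Tssk1* occur in *Tssk2*. Only 100-base reads that lie wholly within a shared run cannot be assigned by sequence, a smaller part than these shares of 31-base words. The counts of *Tssk1* and *Tssk2* are uncertain by the share of such reads that the counting split between them. None of the 31-base words of *Tssk3* to *Tssk6* occur on the same strand of another gene's transcripts. In *Tssk6*, 26.4% of the words lie on the opposite strand of transcripts of other genes, and *Ndufa13* and *Yjefn3* overlap it in antisense. The library kit keeps strand.

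The values are read counts per gene that were normalized for library size and are not whole reads. Depth was roughly 41.1 to 61.6 M reads a library, and 3 reads were worth 2.73 to 3.63 normalized counts. *Ythdc2*, the gene that carries the inserted sites, had 827 and 2412 normalized counts in WT, 1334 and 1136 in *10xPerf*, and 1202 and 2458 in *10xBulge*, so its levels overlapped among the genotypes. Spermatid, spermatocyte, spermatogonia, Sertoli, Leydig and macrophage markers were above 0 in every library. A gene entered the tests if 2 or more libraries had a value of 10 or above, which 23782 genes met, and a limma model with genotype as its term was applied to log2(value + 1). P-values were adjusted over all these genes by the Benjamini-Hochberg method, and a gene was called at an adjusted p under 0.1. Fold changes are given on this log2(value + 1) scale, so those of weakly expressed genes come out too small.

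All 6 kinase genes were lower in *10xBulge* testes than in WT testes, by 22.1-fold for *Tssk4* to 538-fold for *Tssk6* in the ratio of means. None was called between *10xPerf* and WT. The *10xBulge* decrease was called for 6 of 6 members, where 23.0% of all genes tested were called lower. In all 6 genes both *10xBulge* libraries lay below both WT libraries, an order found for 33.2% of all genes tested. The median log2 fold change of the members was -5.98, against -0.026 over all genes tested. All 6 passed the filter on low values, although *Tssk5* and *Tssk6* would not have passed on the *10xBulge* libraries alone and drop out where at least 10 normalized counts are asked of every library. In whole testes, fewer cells of a type and less RNA per cell cannot be told apart. The authors saw no effect on fertility in any homozygous knock-in line. For *10xBulge* they describe occasional smaller litters and lower expression of postmeiotic genes.

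**Figure D1:**
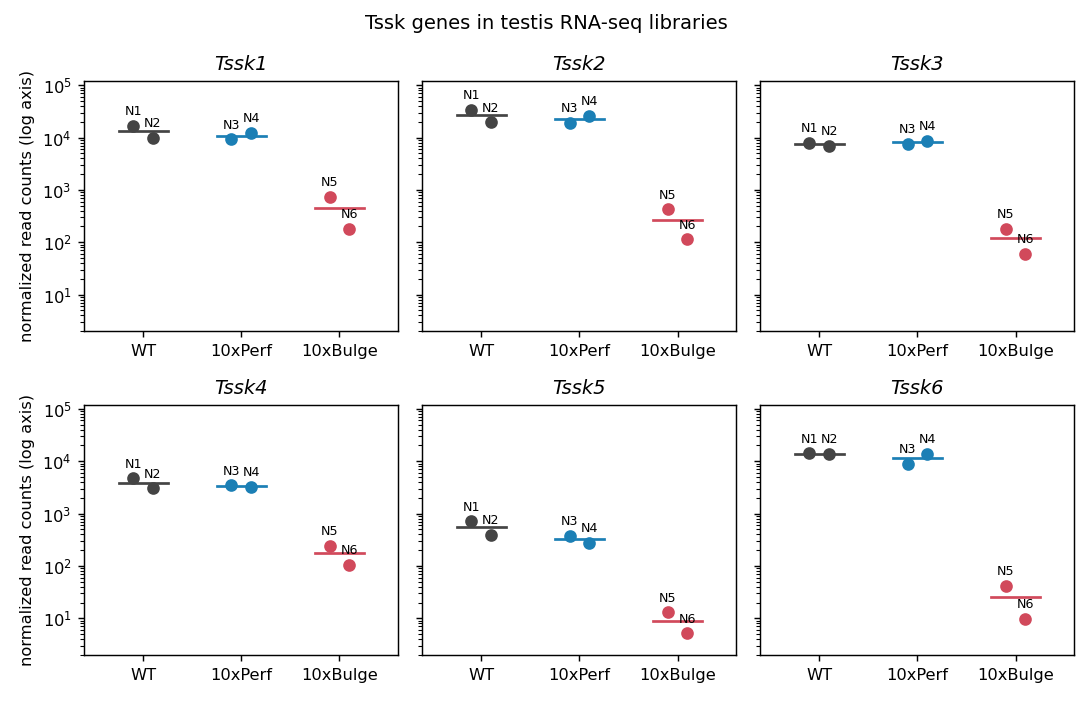
Normalized read counts of each Tssk gene (log axis) by genotype, with a point for each library and a bar at the mean of the 2 libraries. In each panel N5 and N6 (*10xBulge*) lie below the other 4 libraries, and N6 lies below N5.

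*Tssk1* had 16799 and 9799.8 normalized counts in the WT libraries, 9185 and 12332 in *10xPerf*, and 730 and 181 in *10xBulge*. The WT and *10xPerf* ranges overlapped, and both *10xBulge* libraries were far below them. The mean fell from 13299.5 ± 4949 in WT to 456 ± 388 in *10xBulge* (SD, n = 2 each), a log2 fold change of -5.14 (SE 0.63, limma adjusted p = 0.000268). *Tssk2*, its neighbour and closest relative, had 34050.2 and 19493 in WT, 19094 and 26065 in *10xPerf*, and 425 and 113 in *10xBulge*. The order of the libraries was the same as for *Tssk1*, with a larger decrease in *10xBulge*. Its log2 fold change was -6.87 (SE 0.62, limma adjusted p = 3.95e-05), which left 1.00% of the WT mean, while *Tssk1* kept 3.43%.

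*Tssk3*, a kinase whose loss makes male mice infertile, had 7840.4 and 6949 normalized counts in WT, 7433 and 8715 in *10xPerf*, and 182 and 60.1 in *10xBulge*. It was the only member whose mean was higher in *10xPerf* than in WT, with overlapping libraries. The log2 fold change in *10xBulge* was -6.12 (SE 0.52, limma adjusted p = 3.02e-05). *Tssk4*, the ODF2 kinase, had 4686 and 3033 in WT, 3443 and 3217 in *10xPerf*, and 244 and 106 in *10xBulge*. It kept the largest share of its WT level among the members, 4.53%. Its log2 fold change was -4.54 (SE 0.48, limma adjusted p = 0.000109), and 7.51% of all genes tested had a lower one.

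*Tssk5* had the lowest counts of the family, 711 and 387 in WT, 372 and 278 in *10xPerf*, and 12.9 and 5.14 in *10xBulge*. The *10xBulge* values were above the worth of 3 reads in both libraries, but N6 was close to it. The log2 fold change was -5.83 (SE 0.55, limma adjusted p = 5.47e-05). *Tssk6*, the member needed for histone replacement, had 14066 and 13972 normalized counts in WT, 8775 and 13844 in *10xPerf*, and 42.2 and 9.88 in *10xBulge*. Both WT libraries were nearly equal, and the *10xBulge* libraries kept 0.186% of their mean. Its log2 fold change of -9.34 (SE 0.61, limma adjusted p = 8.81e-06) was the lowest of the family, and only 50 of the 23782 genes tested had a lower one.

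The comparison of the knock-in lines with each other shares its *10xBulge* libraries with the comparison against WT. There the log2 fold changes of *10xBulge* against *10xPerf* were -4.87 for *Tssk1*, -6.66 for *Tssk2*, -6.25 for *Tssk3*, -4.36 for *Tssk4*, -5.12 for *Tssk5* and -8.99 for *Tssk6*. All 6 members were called lower (limma adjusted p from 8.92e-06 to 0.000357), where 24.1% of all genes tested were.

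Both comparisons against WT share the WT libraries. Between *10xPerf* and WT none of the 6 members was called in limma, and none had an unadjusted p under 0.05. Of all genes tested, 0.959% were called in that comparison in either direction. Log2 fold changes ran from -0.71 for *Tssk5* (95% confidence interval -1.95 to 0.54, adjusted p = 0.853) to 0.12 for *Tssk3* (-1.06 to 1.31, adjusted p = 0.958). The intervals are wide, and they do not show that the genotypes were alike. For *Tssk5* and *Tssk6* both *10xPerf* libraries lay below both WT libraries, an order found for 19.8% of all genes tested. For *Tssk6* that gap was narrow, with 13844 in N4 beside 13972 in N2. The direction of the *10xPerf* differences of *Tssk1*, *Tssk2*, *Tssk4* and *Tssk6* depended on the setting or on the libraries kept.

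**Figure D2:**
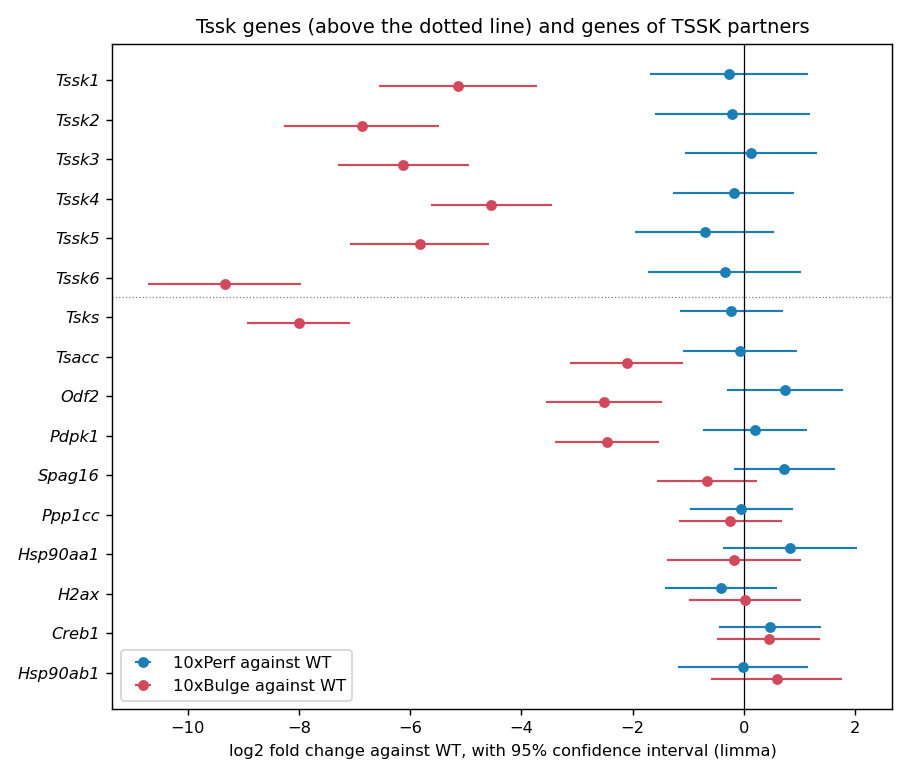
Log2 fold change (x axis) of the Tssk genes and of genes for TSSK partners and substrates, for *10xPerf* against WT (blue) and *10xBulge* against WT (red), with 95% confidence intervals from limma. The red intervals of the 6 Tssk genes, *Tsks*, *Tsacc*, *Odf2* and *Pdpk1* lie below 0, and all blue intervals cross 0.

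For the Tssk genes, the *10xBulge* libraries differed from each other more than the libraries of the other genotypes did. N5 was above N6 for each member, by 1.18 (*Tssk5*) to 2.004 (*Tssk1*) on the log2 scale. The summed level of the family was 1636 normalized counts in N5 and 475 in N6, while in WT it was 78152 and 53634 and in *10xPerf* 48302 and 64452. N5 also had the higher sums of spermatid markers (1350.4 against 847), of Sertoli markers (215449 against 87563) and of Leydig markers (285571 against 137284). The same held for spermatogonia markers (13397 against 8949) and macrophage markers (12689 against 8229). The spermatocyte markers had the higher sum in N5 (52488 against 39887) but the lower median log2 value (10.94 against 11.70 in N6). The total of all normalized counts was 50081041 in N5 and 39754103 in N6. The part of these markers in the spread of the Tssk genes was not tested.

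The members did not fall by the same factor. Ratios of 2 members within a library were compared because the scaling of the library cancels in them; as they are not corrected for length, only their change between libraries is read. The log2 ratio of *Tssk1* to *Tssk2* was -1.02 and -0.99 in WT, -1.06 and -1.08 in *10xPerf*, and 0.78 and 0.68 in *10xBulge*. The 4 libraries of the other genotypes lay within 0.0876 of each other, and the *10xBulge* mean differed from that of WT by 1.73, or 3.32-fold. The neighbouring pair with the most similar sequence thus had another balance in both *10xBulge* libraries.

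The ratio of *Tssk1* to *Tssk6* moved further. Its log2 value was 0.26 and -0.51 in WT, 0.066 and -0.17 in *10xPerf*, and 4.08 and 4.07 in *10xBulge*. The shift against WT was 4.20, or 18.4-fold, and exceeded the WT gap of 0.77. The pair that separated most was *Tssk4* and *Tssk6*, whose log2 ratio rose by 4.79 from WT to *10xBulge* (27.7-fold). The ratio of *Tssk3* to *Tssk5* shifted by -0.29, less than its WT gap of 0.70, but by -1.15 with a pseudocount of 10. *Tssk5* had 12.9 and 5.14 normalized counts in *10xBulge*, at the size of that pseudocount. From WT to *10xPerf* no pair of members moved by more than 0.83. With 2 libraries a genotype, an exact two-sided permutation test of a ratio cannot give a p below 0.333, so these shifts are set only against the gaps between libraries.

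**Figure D3:**
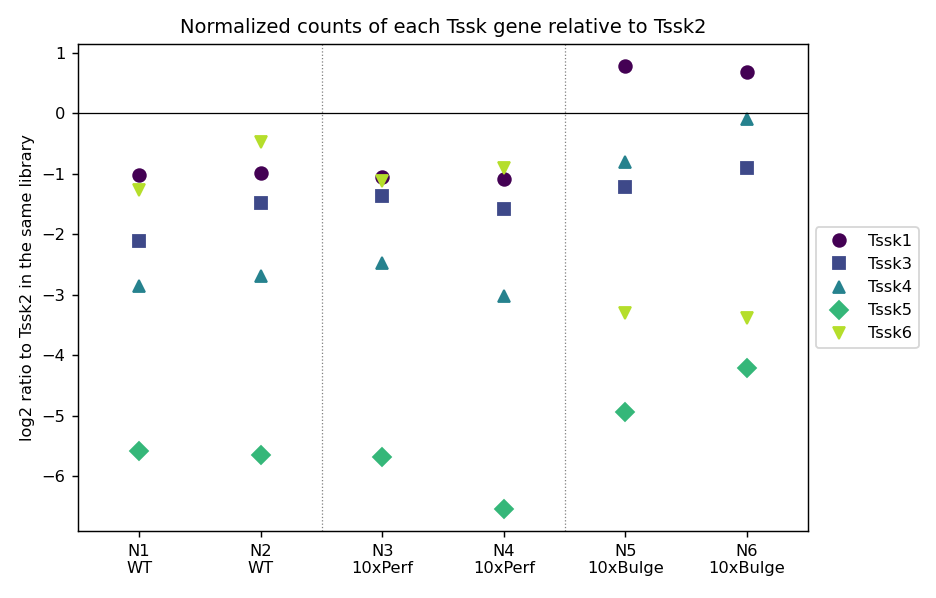
Log2 ratio of the normalized counts of each Tssk gene to those of *Tssk2* in the same library (y axis), for the 6 libraries (x axis). *Tssk1* lies near -1 in N1 to N4 and above 0 in N5 and N6, whereas *Tssk6* lies below -3 in N5 and N6.

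Levels of different genes were compared per kilobase of the longest protein-coding GENCODE transcript. In WT, *Tssk2* was highest at 19288 ± 7416 normalized counts per kb (SD, n = 2), followed by *Tssk6* at 10501 ± 49.7, *Tssk3* at 5777 ± 493, *Tssk1* at 3594 ± 1338, *Tssk4* at 2289 ± 693 and *Tssk5* at 362 ± 151. The libraries of *Tssk1* and *Tssk4* overlapped on this scale (lowest *Tssk1* value 2649, highest *Tssk4* value 2779), and other neighbours in the order did not. In *10xPerf* the order of the means was the same. In *10xBulge* the means per kb were 194 ± 159 for *Tssk2*, 123 ± 105 for *Tssk1*, 103.8 ± 57.9 for *Tssk4*, 94.7 ± 67.5 for *Tssk3*, 19.5 ± 17.1 for *Tssk6* and 5.95 ± 3.63 for *Tssk5*. The first 4 did not differ beyond their spread, and the libraries of *Tssk6* and *Tssk5* overlapped. *Tssk6* moved from rank 2 in WT to rank 5. Its share of the family's summed level per kb was 21.3% to 30.2% in the WT and *10xPerf* libraries and 3.81% and 2.95% in N5 and N6. *Tssk4* went the other way, from 4.61% to 6.61% of the family in the 4 libraries to 17.4% and 25.0%. The rank of *Tssk1* depends on its length, which is 3700 bases in GENCODE and 1451 in RefSeq. With the RefSeq length it ranked 3 in WT and 1 in *10xBulge*. The share of *Tssk4* was then 4.10% to 5.88% in the WT and *10xPerf* libraries, and 12.7% and 19.2% in N5 and N6. That of *Tssk6* was then 18.8% to 27.0%, and 2.78% and 2.26% in N5 and N6.

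Proteins that work with the kinases were taken as a list of 10 genes. In *10xBulge* against WT, 4 of the 10 were called lower and 0 higher (limma, with 0 higher also at an unadjusted p under 0.05), with a median log2 fold change of -0.45. Of all genes tested, 23.0% were called lower and 11.4% higher. *Tsks*, the substrate of TSSK1 and TSSK2, had 31413 and 18805 normalized counts in WT, 19099 and 22619 in *10xPerf*, and 102 and 86.6 in *10xBulge*. The log2 fold change of -8.00 (SE 0.41, limma adjusted p = 4.39e-06) stood beside -5.14 for *Tssk1* and -6.87 for *Tssk2*. In WT and *10xPerf* the log2 ratio of *Tssk2* to *Tsks* stayed between -0.00040 and 0.20. In *10xBulge* it was 2.05 in N5 and 0.38 in N6, so it differed widely between the *10xBulge* libraries.

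*Tsacc* encodes the co-chaperone that links TSSK6 to HSP90. It had 7990.1 and 9692 normalized counts in WT, 6781 and 10389.8 in *10xPerf*, and 2784 and 1505 in *10xBulge*. It fell by 2.10 on the log2 scale (limma adjusted p = 0.00804), beside -9.34 for *Tssk6*, and the log2 ratio of *Tssk6* to *Tsacc* moved by -7.23. *Odf2*, the tail fibre gene and TSSK4 substrate, had 56416 and 96148 in WT, 121930.5 and 123705 in *10xPerf*, and 14936 and 11153 in *10xBulge*. The log2 fold change against WT was -2.51 (limma adjusted p = 0.00339). *Pdpk1*, a kinase that can activate TSSK3, had a log2 fold change of -2.45 (limma adjusted p = 0.00203). The HSP90 genes *Hsp90aa1* and *Hsp90ab1* were not called, with log2 fold changes of -0.18 (limma adjusted p = 0.834) and 0.59 (adjusted p = 0.441). The candidate substrates *Spag16* (-0.66), *Creb1* (0.44) and *H2ax* (0.021) and the phosphatase gene *Ppp1cc* (-0.24) were not called either. Against *10xPerf*, 5 of the 10 were called lower, where 24.1% of all genes tested were. The additional gene was *Spag16* (log2 fold change -1.39, limma adjusted p = 0.0307). Between *10xPerf* and WT, 0 of the 10 were called, and 0 had an unadjusted p under 0.05.

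In the main fit, other kinases with roles in male germ cells were called lower in *10xBulge* than in WT about as often as all genes tested. More of them were called lower under some of the alternatives listed at the end. Of 9 genes, 2 were called lower in *10xBulge* than in WT, where 23.0% of all genes tested were. Called higher were 0 (limma, 0 higher also at an unadjusted p under 0.05). The median log2 fold change was -0.97, against -0.026 over all genes tested. Against *10xPerf*, 5 of the 9 were called lower (*Camk4*, *Haspin*, *Stk33*, *Mak* and *Fer*), where 24.1% of all genes tested were. *Camk4*, a calmodulin kinase that phosphorylates a protamine, had 1204 and 1316 normalized counts in WT, 1908 and 1772 in *10xPerf*, and 66.4 and 43.5 in *10xBulge*. The log2 fold change was -4.53 (limma adjusted p = 3.72e-05), close to that of *Tssk4*. *Mak* had a log2 fold change of -1.81 (limma adjusted p = 0.0166). The AMPK-related kinases, the relatives of the family in sequence, showed a median of 0.15 over 16 genes. Of these, 1 was called lower, where 23.0% of all genes tested were: *Brsk2* (log2 fold change -2.69, limma adjusted p = 0.000903). Called higher were 2, where 11.4% of all genes tested were: *Nuak1* (1.45, adjusted p = 0.0474) and *Nuak2* (1.21, adjusted p = 0.0593). The calls of *Nuak1* and *Nuak2* were lost without N1 or without N5. At an unadjusted p under 0.05, 4 of the 16 were higher and 1 lower. The share of all genes at that threshold was not computed. Between *10xPerf* and WT, 0 of the 9 and 0 of the 16 were called by limma, with 0 at an unadjusted p under 0.05.

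**Figure D4:**
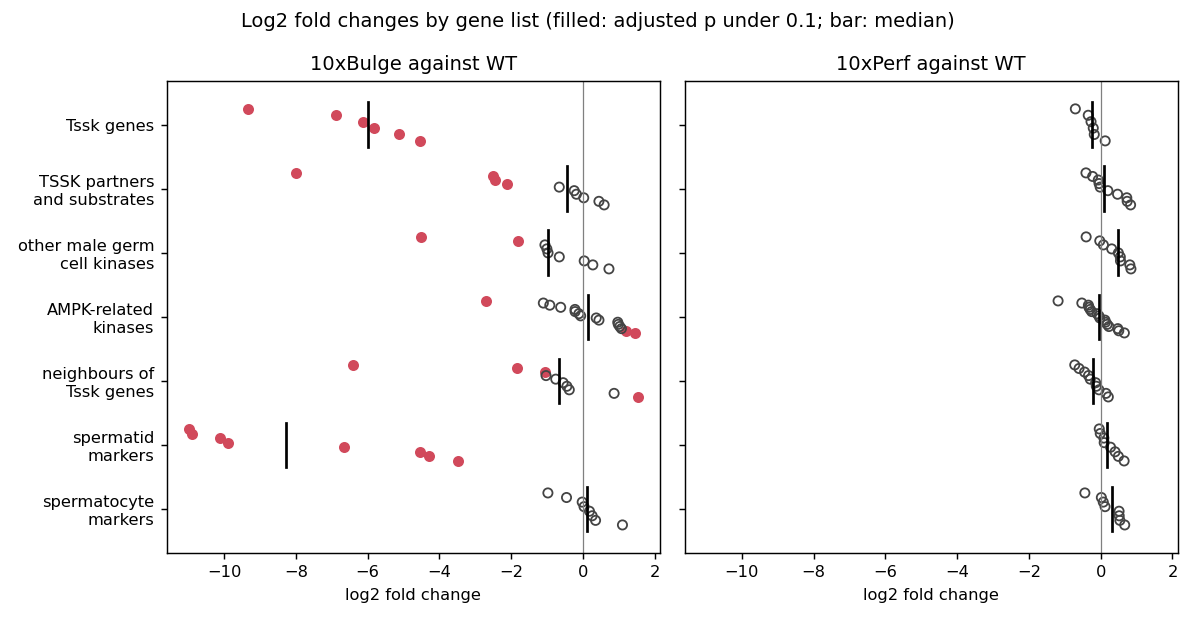
Log2 fold changes (x axis) of single genes in *10xBulge* (left) and *10xPerf* (right) against WT, by gene list, with filled points for an adjusted p under 0.1 and a bar at the median of the list. In *10xBulge* the medians of the Tssk genes (-5.98) and of the spermatid markers (-8.27) are the lowest, and in *10xPerf* no point is filled.

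Chromosomal neighbours were compared with the members they lie beside. On each side the protein-coding gene with the nearest midpoint was taken. *Yjefn3*, which overlaps *Tssk6* in antisense, is not among them. Of the 10 neighbours that are not members, 3 were called lower and 1 higher in *10xBulge* than in WT, with a median log2 fold change of -0.66. These shares were near the 23.0% lower and 11.4% higher of all genes tested. *Fam229a* starts 167 bases from *Tssk3*, on the opposite strand and in the opposite direction. It had 4739 and 5007 normalized counts in WT, 3959.8 and 4934 in *10xPerf*, and 83.2 and 37.9 in *10xBulge*, a log2 fold change of -6.41 (SE 0.46, limma adjusted p = 1.26e-05) beside -6.12 for *Tssk3*. *Dgcr2*, whose gene overlaps *Tssk1* in antisense, changed by -1.84 (limma adjusted p = 0.0104), and *Ndufa13*, which overlaps *Tssk6* in antisense, by -1.05 (adjusted p = 0.0737). *Mdp1*, 5339 bases from *Tssk4*, had a log2 fold change of 1.52 (limma adjusted p = 0.0433), opposite in sign to its neighbour, and the call was lost without N2, which left 0 neighbours called higher. *Ess2*, 684 bases from *Tssk2*, was not called (-0.55, adjusted p = 0.433), nor was *Hgh1*, 514 bases from *Tssk5* (-0.45, adjusted p = 0.468).

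Promoter windows, 250 bases before to 50 bases after the start, were available for 5 members in RefSeq on GRCm38.p6, and short motifs were searched on both strands because factors that bind them are known in spermatids or at many promoters. The full cAMP response element TGACGTCA was in 0 of the 5 windows and in 1.79% of all 32851 promoters. Its core TGACG was in 1 of 5, that of *Tssk6*, and in 20.8% of all promoters. TATAAA was in 0 of 5 and in 13.6% of all, and CCAAT in 2 of 5 and in 37.4% of all. The TGACG match also lies inside any full element, and none was present. The matches are shown with their flanks, with the motif in capitals, on the strand of the gene.
*Tssk6*, TGACG, chr8:69902099-69902127, plus strand: cccaaggccgagTGACGcccgcagtcact
*Tssk3*, CCAAT in reverse, chr4:129490795-129490823, minus strand: atttacatcacaATTGGgcaggagtttaa
*Tssk4*, CCAAT, chr14:55650059-55650087, plus strand: caagctttgtggCCAATgatgaataaagg
The matches begin 73 bases before the RefSeq start of *Tssk6*, 41 before that of *Tssk3* and 113 before that of *Tssk4*. For *Tssk6* and *Tssk4* the GENCODE gene starts at the same base. The RefSeq start of *Tssk3* lies 252 bases inside the GENCODE gene, so that its match begins 211 bases downstream of the GENCODE start. They describe these windows and were not tested against the values.

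Genes with the most similar profiles were taken from 13796 protein-coding genes with a mean of at least 100 normalized counts. Likeness was the Euclidean distance between log2 profiles over the 6 libraries, each centred on its mean, and the profiles share libraries and scaling. Among the 2 nearest genes of each member were *Osbp2* (distance 0.278) and *Stard10* (0.302) for *Tssk1*, *Cib4* (0.313) and *Pdzk1ip1* (0.375) for *Tssk2*, and *4930451I11Rik* (0.438) for *Tssk3*. For *Tssk4* they were *Akna* (0.295) and *Isg20* (0.335), for *Tssk5* *Dcst2* (0.515) and *Aldoart2* (0.559), and for *Tssk6* *Gm15517* (0.567) and *Defb33* (0.597). None of these genes was named for 2 members. In N6, *Cib4* (2.88 normalized counts) and *Defb33* (0) were below the worth of 3 reads (2.90), so their distances depend on the pseudocount. *Osbp2*, the closest of all, had 59022 and 39141 normalized counts in WT, 39923 and 48013 in *10xPerf*, and 3248 and 699.8 in *10xBulge*. The distance is taken over all 6 libraries, so likeness to *Tssk1* in the gap between N5 and N6 is part of how *Osbp2* was chosen. Within the family the closest pairs were *Tssk2* with *Tssk3* (0.911) and *Tssk1* with *Tssk4* (0.939), whereas *Tssk1* and *Tssk2* were 2.04 apart and *Tssk4* and *Tssk6* 5.51.

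Among the lists of cell type markers, only the spermatid list fell with the family in *10xBulge*. Of 8 spermatid markers, 8 were called lower, where 23.0% of all genes tested were. Their summed level was 426018 to 647362 normalized counts in WT and 847 to 1350.4 in *10xBulge*. Their log2 fold changes ran from -10.97 (*Prm1*) to -3.48 (*Spaca1*), with a median of -8.27. The log2 fold changes of all 6 Tssk genes lay inside that range. Of 8 spermatocyte markers, 0 were called by limma and 0 had an unadjusted p under 0.05, with sums of 36260.0 to 47791 in WT and 39887 to 52488 in *10xBulge*. Markers called higher were 1 of 6 for spermatogonia, 5 of 6 for Sertoli cells, 4 of 6 for Leydig cells and 5 of 6 for macrophages, where 11.4% of all genes tested were. At an adjusted p under 0.05 the counts were 1, 0, 4 and 3, so that the Sertoli calls all lay between the thresholds of 0.05 and 0.1. Leydig sums were 50112 to 70959.7 in WT and 137284 to 285571 in *10xBulge*, Sertoli sums 54072 to 54334 and 87563 to 215449, spermatogonia sums 4689 to 5449 and 8949 to 13397, and macrophage sums 3305 to 4139 and 8229 to 12689. No defining marker was at 0 in any library. The part of these cell types in the decrease of the Tssk genes was not tested.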

How the data were processed

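The 6 testis RNA-seq libraries were used, and the 20 immunoprecipitation libraries were not analysed here. The authors quantified reads on GRCm39 with salmon, with its GC correction, and obtained DESeq2 normalized counts, deposited as a signal for each gene in every library and not as whole reads. The log2 fold changes and adjusted p-values that the authors deposited for each knock-in line against WT were not used. From the deposited values, log2(value + 1) was fitted with limma 3.58.1 (R 4.3.3) with a mean-variance trend and a term per genotype. The procedure was tested on simulated data. Replicates were taken to be separate mice. Alternatives were other scalings, filters, pseudocounts and thresholds, a GC correction, fits of only the genotypes compared or without the trend, and leaving out each library. Named genes are the members, listed partners, kinases and markers, the nearest protein-coding neighbours, and the 2 nearest profiles of each member, of which 1 is not reported here. Members and lists were chosen with earlier results of these data known. Sequences come from GENCODE and RefSeq on GRCm38. Transcript lengths were those of GRCm38, a build other than that of the counts. Python 3.11.15 and matplotlib 3.10.9 were used. Floors of 3 reads cover counting error only.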

Additional observations from a re-analysis of the deposited data

How the results depend on the processing

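The *10xBulge* decreases of all 6 Tssk genes kept their direction and their call against WT and against *10xPerf* under every alternative that gave a value, and with each library left out. Against WT, log2 fold changes with a library left out ran from -6.14 to -4.13 for *Tssk1* and from -10.33 to -8.34 for *Tssk6*, and the largest adjusted p was 0.0164 (*Tssk1*). *Tssk5* and *Tssk6* gave no value where every library needed 10 normalized counts. Between *10xPerf* and WT, with no call, the sign turned positive with the GC trend removed for *Tssk2* (0.11), *Tssk4* (0.072) and *Tssk6* (0.25), without N1 for *Tssk1* (0.12), *Tssk2* (0.19) and *Tssk4* (0.13), and without N3 for *Tssk2* (0.017). With a library left out these values ran from -0.66 to 0.12 for *Tssk1*, from -0.61 to 0.19 for *Tssk2* and from -0.49 to 0.13 for *Tssk4*, each lowest without N2. The cause was not tested. The number of other germ cell kinases called lower in *10xBulge* was 4 with upper-quartile scaling and 5 with the GC trend removed, and 2 to 4 with a library left out (4 without N5). AMPK-related kinases called lower were 2 with upper-quartile scaling and 3 with the GC trend removed, and 1 to 2 with a library left out (2 without N2). Those called higher were 6 with library totals, 4 with the GC trend removed, 1 in a fit of only 2 genotypes and 1 at an adjusted p under 0.05, and 0 to 4 with a library left out (0 without N1 or N5, 1 without N4, 4 without N6). Neighbours called higher were 2 with library totals and 0 to 1 with a library left out (0 without N2). With a pseudocount of 10 the log2 ratio of *Tssk3* to *Tssk6* moved by 2.77 instead of 3.21 from WT to *10xBulge*, that of *Tssk3* to *Tssk5* by -1.15 instead of -0.29, that of *Tssk2* to *Tssk5* by -1.95 instead of -1.04, that of *Tssk4* to *Tssk5* by 0.38 instead of 1.29, and that of *Tssk1* to *Tssk5* by -0.25 instead of 0.69. The ratios of *Tssk1* to *Tssk2* (1.71), of *Tssk1* to *Tssk6* (3.67) and of *Tssk4* to *Tssk6* (4.30) kept their direction.

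Over all genes, *10xBulge* against WT gave 2712 higher and 5466 lower calls. Library totals gave 5788 and 4745, and shifted the median of all genes from -0.026 to 0.36. A filter of 10 in every library gave 2926 lower calls, an adjusted p under 0.05 gave 1370 higher calls, a fit of only 2 genotypes gave 1512 higher calls, and leaving out a library gave 636 (without N1) to 2858 (without N6) higher calls. Between *10xPerf* and WT the counts were 111 and 117, and alternatives gave 40 to 214 higher and 53 to 190 lower calls, or 11 to 204 and 10 to 186 with a library left out. Against *10xPerf*, *10xBulge* had 3077 higher and 5729 lower calls. Library totals gave 5122 higher, an adjusted p under 0.05 gave 1725 higher, the filter in every library gave 3064 lower, and a library left out gave 418 (without N3) to 3286 higher and 3730 (without N3) to 5812 lower calls. No paired analysis was possible because the genotypes share no library numbers or mice. With 2 libraries a genotype, small changes between *10xPerf* and WT could be missed.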
